A study of Mus musculus with 36 samples.

Results

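The genes described here are 7 macrophage transcripts: Rab3il1, Hip1, Rasgef1b, Mtss1, Snx24, Cdk20 and Slco4a1. They were picked because their change from 3 h to 7 h of R837, or their level at 7 h, was much lower in N4bp1 knockout (KO) than in wild-type (WT) cells. They are 7 of the 52636 genes counted, and all 7 passed the filter on low counts. Libraries of R837 alone at 3 h and 7 h chose them, so every comparison of these 7 genes that uses those libraries is given below as a description, with no test. Libraries with actinomycin D (ActD) played no part in the choice, and the tests of these genes are given only there. The ActD groups also began with 3 h of R837. A difference between genotypes at 3 h, which entered the choice, may therefore carry over into them, and this was not tested. Tests of other genes, such as relatives and markers, also use the libraries of R837 alone.

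The cells were mouse bone marrow-derived macrophages (BMDMs), grown from bone marrow with the growth factor M-CSF. All groups were treated with R837 (imiquimod, a small-molecule agonist of the endosomal receptor TLR7), and no unstimulated cells were analysed here. WT and N4bp1 KO cells each had R837 for 3 h, R837 for 7 h, or R837 for 3 h and then ActD, an inhibitor of transcription, for 0.5, 1, 2 or 4 h. The 2 genotypes and 6 conditions made 12 groups of 3 libraries, 36 in all, and per the labels the 3 libraries of a group came from 3 individual mice. The culture protocol names the C57BL/6N strain; neither the knockout allele nor the age and sex of the mice is stated in the labels. The labels do not tie libraries of different conditions to the same mouse, so spread between libraries was treated as spread between independent samples and the p-values below may be too small where mice were shared.

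N4bp1 encodes a protein with an RNA-cleaving type of domain that restrains cytokine production downstream of Toll-like receptors. The 7 genes belong to no single pathway, and their proteins move membrane vesicles, shape membrane and actin, pass on signals or carry solutes. Rab3il1 encodes an activator of Rab GTPases, the switches that direct vesicles to their target membranes. Hip1 encodes an adaptor that links clathrin coats to actin during endocytosis. Snx24 encodes a sorting nexin, a member of a family of phosphoinositide-binding proteins of endosomes. Mtss1 encodes an I-BAR protein that binds and bends membrane and binds actin. Rasgef1b encodes an exchange factor for small GTPases of the Ras family and is known as a gene switched on early by Toll-like receptor agonists in macrophages. Cdk20 encodes a cyclin-dependent kinase-like enzyme known from work on the cell cycle and the primary cilium. Slco4a1 encodes an organic anion transporter of the plasma membrane that carries thyroid hormone.

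Promoters are shown as context for genes picked together by the same rule. RefSeq promoters of the GRCm38.p6 assembly, with 250 bases before and 50 after the start of transcription, matched 5 of the 7 genes by symbol. The table held 5 promoters for Rab3il1 and 2 each for Hip1 and Slco4a1; only 1 window per gene was searched, and the others are not analysed here. Those of Mtss1 and Snx24 are not analysed here. The promoters below are written 5′ to 3′ on the gene's own strand, and capitals mark matches to the motifs searched. Rab3il1 is shown for the largest difference at 7 h, Rasgef1b for the largest fall under ActD, Cdk20 for the smallest fall under ActD in WT, and Slco4a1 for the level at 7 h that did not differ beyond the spread of libraries.
Rab3il1: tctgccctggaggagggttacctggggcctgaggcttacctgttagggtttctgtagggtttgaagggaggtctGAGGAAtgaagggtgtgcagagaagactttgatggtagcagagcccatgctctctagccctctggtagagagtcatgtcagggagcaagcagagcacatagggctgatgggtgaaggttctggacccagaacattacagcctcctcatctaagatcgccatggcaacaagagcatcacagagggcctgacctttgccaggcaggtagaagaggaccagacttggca
Rasgef1b: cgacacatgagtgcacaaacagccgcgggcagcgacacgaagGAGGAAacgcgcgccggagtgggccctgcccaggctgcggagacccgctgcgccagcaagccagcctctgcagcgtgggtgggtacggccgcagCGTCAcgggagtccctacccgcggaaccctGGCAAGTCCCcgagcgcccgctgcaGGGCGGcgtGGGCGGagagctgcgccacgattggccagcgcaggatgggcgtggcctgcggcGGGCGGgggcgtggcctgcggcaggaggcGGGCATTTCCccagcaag
Cdk20: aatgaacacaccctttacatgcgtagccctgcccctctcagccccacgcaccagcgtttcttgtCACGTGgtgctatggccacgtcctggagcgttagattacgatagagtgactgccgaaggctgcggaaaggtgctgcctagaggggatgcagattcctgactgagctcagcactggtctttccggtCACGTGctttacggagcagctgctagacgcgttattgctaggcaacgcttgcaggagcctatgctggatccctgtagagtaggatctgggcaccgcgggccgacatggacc
Slco4a1: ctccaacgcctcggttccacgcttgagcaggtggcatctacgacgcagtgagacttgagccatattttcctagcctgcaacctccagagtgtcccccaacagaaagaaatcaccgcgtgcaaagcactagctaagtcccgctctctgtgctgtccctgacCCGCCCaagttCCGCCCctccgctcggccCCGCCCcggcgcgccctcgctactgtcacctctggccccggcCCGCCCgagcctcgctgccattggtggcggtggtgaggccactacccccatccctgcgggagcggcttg
They lie at chr19:10001419-10001718 (plus strand), chr5:99252878-99253177 (minus strand), chr13:64432303-64432602 (plus strand) and chr2:180455995-180456294 (plus strand). The window of Hip1, searched and not printed, is chr5:135545073-135545372 (minus strand).

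The search was for 11 exact motifs on both strands, and positions are those of the first base of a match from the start of transcription. Rasgef1b held the most kinds of match. It had 2 NF-kB matches at -84 and 32, a motif found in 4.79% of 32851 promoters of the same length, and a CRE core (TGACG) at -114, found in 20.8%. It also had a PU.1 core (GAGGAA) at -208, found in 28.3% of promoters, and 3 GC boxes (GGGCGG), found in 35.7%. The 300 bases of Cdk20 held 2 E-boxes (CACGTG) at -186 and -61, a motif found in 7.15% of promoters. Slco4a1 held 4 GC boxes, Hip1 held 3, and Rab3il1 held a PU.1 core at -176 as the only match in the window searched. None of the 5 windows held a full CRE (TGACGTCA, 1.79% of promoters), AP-1 (TGANTCA, 7.81%), interferon-response core (3.44%), GAS (TTCNNNGAA, 8.3%), C/EBP (TTGCGCAA, 0.183%) or TBP (TATAAA, 13.6%) match. The start used for Rasgef1b lies 476138 bases inside the outermost 5′ end annotated for the gene, and the counts do not show which start was in use. The CRE core is contained in the full CRE, and no motif was common to all 5 windows.

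In the GRCm38 assembly Rab3il1 (ENSMUSG00000024663) spans chr19:10001669-10038380 on the plus strand. Hip1 (ENSMUSG00000039959) spans chr5:135406531-135545120 and Rasgef1b (ENSMUSG00000089809) chr5:99217426-99729065, both on the minus strand. Mtss1 (ENSMUSG00000022353) spans chr15:58941234-59082005 on the minus strand. Snx24 (ENSMUSG00000024535) spans chr18:53245662-53390920, Cdk20 (ENSMUSG00000021483) chr13:64432314-64441773 and Slco4a1 (ENSMUSG00000038963) chr2:180456245-180474867, all on the plus strand. All 7 are annotated as protein-coding. Cdk20 shares 49 exon bases with 1700015C15Rik on the opposite strand, and reads there could belong to either gene. The other 6 genes shared no exon bases with another annotated gene.

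Counts per library totalled 20.3 M to 46.1 M (median 26.3 M), and mitochondrial genes held 0.0337 to 0.0769% of them. The targeted transcript N4bp1 was reduced in KO and not absent: at 3 h it was at 125 to 147 CPM (counts scaled to a common library total) in WT and at 81.3 to 86 CPM in KO. At 7 h it was at 170 to 183 CPM in WT and 141 to 145 CPM in KO, and after 4 h of ActD it was at 53.4 to 63.3 CPM in WT and 76.8 to 94.2 CPM in KO, above WT there; reads outside a deletion do not check the label. Macrophage markers summed to 32300 to 32621 CPM in WT and 30386 to 31031 CPM in KO at 7 h, with 3 of 15 tested higher and 5 lower in KO. In the genotype difference of the 3 h to 7 h change, which was among the measures that picked the 7 genes, 6 of the 15 macrophage markers were lower and 1 higher (median -0.36), against 6.84% lower and 5.45% higher of all genes. Lists of markers of other cells also differed between genotypes at 7 h. The 12 fibroblast and stromal markers summed to 34.2 to 39.5 CPM in WT and 58.5 to 69.2 CPM in KO, with 10 of 11 tested higher in KO (median 0.83), against 15.5% of all genes. At 3 h 9 of the 11 were already higher in KO (median 0.86), against 15.2% of all genes. In the genotype difference of the 3 h to 7 h change 1 of the 11 was higher and 0 lower (median -0.00). At 7 h the 12 dendritic cell markers summed to 229 to 231 against 398 to 401 CPM (4 of 9 tested higher, 1 lower), and the 15 neutrophil markers to 620 to 639 against 853 to 894 CPM (3 of 15 tested higher, the others not called). B and plasma cell markers (10 genes) summed to 37.5 to 44.1 against 48.6 to 50.8 CPM, mast cell and basophil markers (10 genes) to 6.82 to 7.57 against 8.94 to 9.32 CPM, T and NK cell markers (10 genes) to 20.4 to 24.3 against 20.7 to 23.2 CPM, and erythroid markers (8 genes) to 0.246 to 0.626 against 0.0802 to 0.191 CPM. Mcpt4, Tpsab1 and Alas2 had 0 counts in all 36 libraries. Of the T and NK cell markers, Cd4, Lck and Cd8a had median counts of 316.5, 125.5 and 77. Cd3e, Cd3g and Trac had a median of 0 and Cd3d of 1, and none of them was tested. Of the dendritic cell markers, Cd74 (median 5900) and H2-Ab1 (2956) held most reads, while Flt3 had 10.5 and Zbtb46 7. These 2 sums thus rest on few genes and do not settle whether such cells were present. The part of the cells these lists mark in the results below was not tested, and in bulk cultures fewer cells of a type and less RNA per cell cannot be told apart.

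At 7 h of R837 the transcripts of 6 of the 7 genes lay below WT in every KO library, and those of Slco4a1 did not. The values below are CPM after scaling of the libraries. Rab3il1 was at 105, 93.4 and 92.9 CPM in the 3 WT libraries and at 16.2, 14.5 and 14.5 CPM in the 3 KO libraries at 7 h. All WT libraries were far above all KO libraries, a difference of log2 -2.69 ± 0.09 (SE, n = 3 libraries per group), or 6.43-fold. Hip1 was at 24.9, 24.2 and 26.1 CPM in WT and at 4.48, 5 and 5.11 CPM in KO. Its KO libraries were all far below its WT libraries (log2 -2.36 ± 0.14, 5.15-fold). Snx24 was at 10.7, 9.2 and 8.46 CPM in WT and at 1.89, 1.68 and 1.68 CPM in KO. The groups did not overlap (log2 -2.42 ± 0.17), and the KO values rest on 40 to 54 reads a library.

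Mtss1 was at 19.5, 19.4 and 18.7 CPM in WT and at 6.31, 5.21 and 5.43 CPM in KO at 7 h, a difference of log2 -1.76 ± 0.11. All WT libraries of Mtss1 were above all KO libraries. Rasgef1b was at 91, 88.7 and 86.4 CPM in WT and at 29.4, 24.7 and 29.8 CPM in KO (log2 -1.66 ± 0.10). Cdk20, the kinase gene, was at 30.8, 29.6 and 30.4 CPM in WT and at 7.25, 7.48 and 7.23 CPM in KO (log2 -2.05 ± 0.08). Both of these signalling genes were fully apart between the genotypes. Slco4a1, the transporter gene, was at 10.3, 9.05 and 12.1 CPM in WT and at 10.1, 8.16 and 8.83 CPM in KO at 7 h. Its groups overlapped (log2 -0.21 ± 0.15), so by its level Slco4a1 was not lost at 7 h, and it owes its place to the change from 3 h. Over all genes tested, KO libraries were all below WT libraries in 26% at 7 h, and the rule that chose the 7 used these same libraries.

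Per length, on the deposited RPKM scale, the levels of the 7 at 7 h in WT were 28.4 ± 1.92 (SD, n = 3) for Rab3il1, 7.83 ± 0.2 for Rasgef1b, 6.86 ± 0.124 for Cdk20, 4.69 ± 0.549 for Snx24, 3.62 ± 0.0835 for Mtss1, 3.03 ± 0.435 for Slco4a1 and 2.79 ± 0.102 for Hip1. In KO at 7 h Rab3il1 was at 4.12 ± 0.268 RPKM, Slco4a1 at 2.44 ± 0.257, Rasgef1b at 2.31 ± 0.235, Cdk20 at 1.56 ± 0.0296, Mtss1 at 0.995 ± 0.1, Snx24 at 0.814 ± 0.0555 and Hip1 at 0.507 ± 0.0359. Rab3il1 headed both orders and Hip1 ended both, while Slco4a1 stood next to last in WT and next to first in KO.

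At 3 h of R837 the same genes lay close together in the 2 genotypes, and some were higher in KO. Rab3il1 was at 64.9, 65.2 and 61.9 CPM in WT and at 57.6, 59.6 and 53.3 CPM in KO, with all KO libraries a little lower (log2 -0.17 ± 0.08). Hip1 overlapped, with 27.9, 32.1 and 25 CPM in WT and 34.7, 30.6 and 24.4 CPM in KO. Snx24 (5.13, 4.34 and 3.61 against 4.6, 3.77 and 4.03 CPM) and Cdk20 (19.1, 17.4 and 16.7 against 16.4, 16.6 and 16.8 CPM) overlapped too. The other 3 genes were above WT in every KO library at 3 h. Rasgef1b was at 106, 111 and 100.4 CPM in WT and at 152, 148 and 142 CPM in KO (log2 0.48 ± 0.09). Mtss1 was at 23.8, 25.6 and 22.6 CPM in WT and at 31.2, 25.7 and 26 CPM in KO (log2 0.21 ± 0.09). Slco4a1 was at 8.71, 7.91 and 6.4 CPM in WT and at 15.9, 13.2 and 12.4 CPM in KO (log2 0.86 ± 0.15). Over all genes tested, KO libraries lay all above WT in 19.2% and all below in 18.1% at 3 h.

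**Figure D1:**
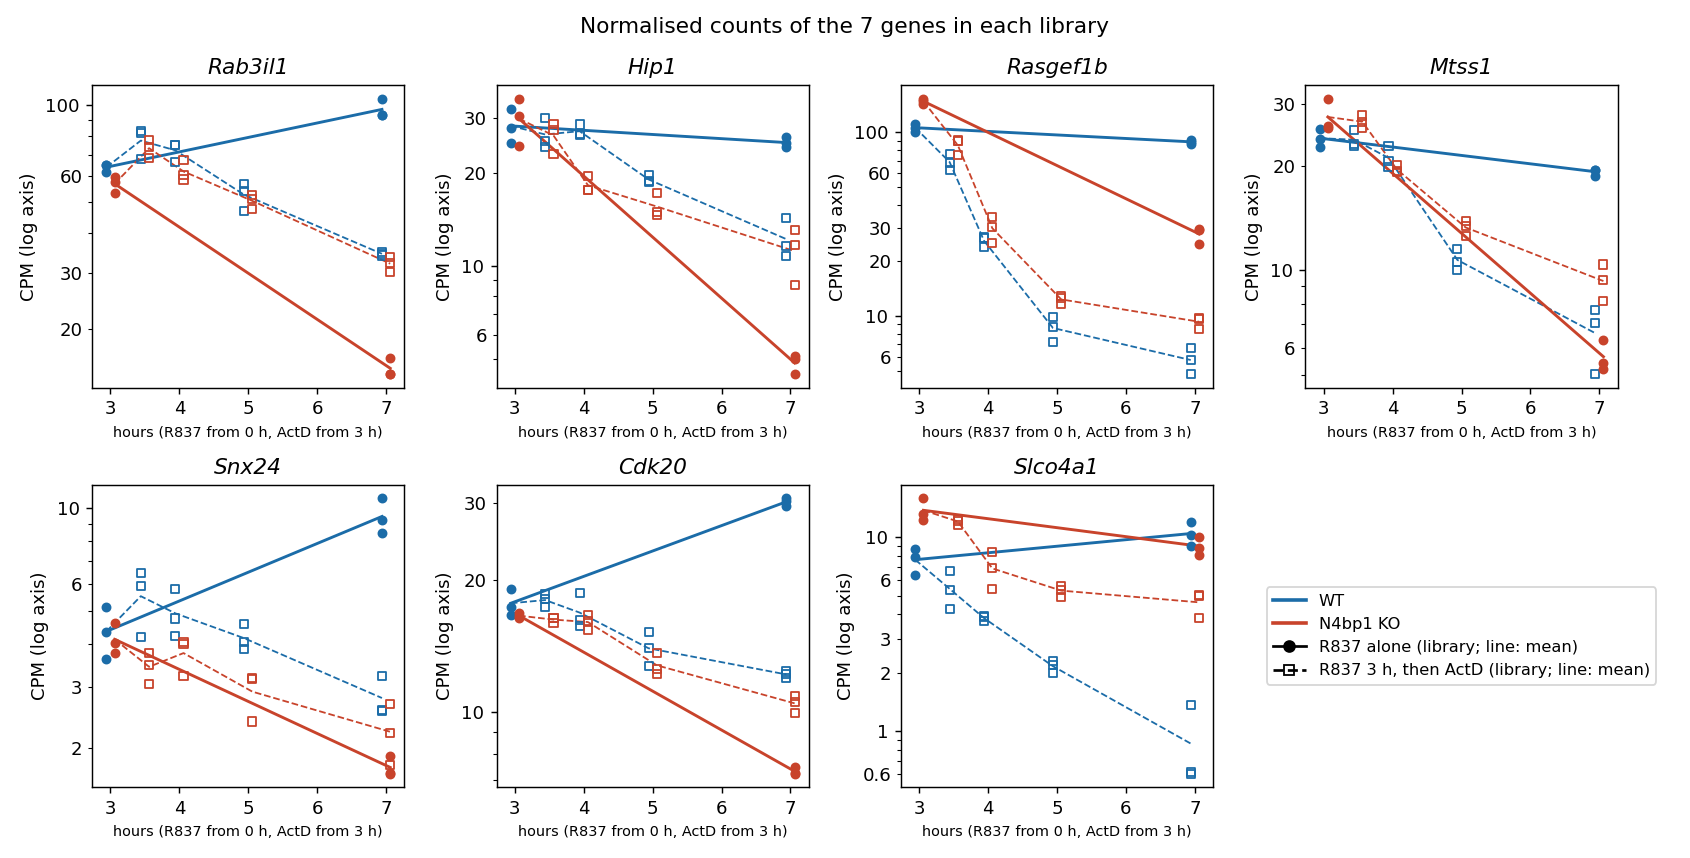
CPM (log axis) of each of the 7 genes in each of the 36 libraries against hours, with R837 from 0 h and ActD from 3 h; filled circles and solid lines are R837 alone, open squares and dashed lines R837 with ActD, blue WT and red KO, and lines join the means of 3 libraries. At 7 h the filled red circles lie below the filled blue ones for every gene except Slco4a1, where they overlap, and for Rab3il1, Hip1, Mtss1 and Cdk20 they also lie below the red squares.

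From 3 h to 7 h the genes split into those that gained in WT and those that did not, while all 7 were lower at 7 h than at 3 h in KO. In WT the level of Snx24 was log2 1.12 higher at 7 h, Cdk20 0.77, Rab3il1 0.60 and Slco4a1 0.45. Hip1 (-0.18), Rasgef1b (-0.26) and Mtss1 (-0.32) were slightly lower in WT. In KO the changes were -2.63 for Hip1, -2.40 for Rasgef1b, -2.29 for Mtss1, -1.91 for Rab3il1, -1.24 for Snx24, -1.18 for Cdk20 and -0.62 for Slco4a1. As a share of its own mean at 3 h, Hip1 at 7 h stood at 88.3% in WT and 16.3% in KO, Rasgef1b at 83.8% and 18.95%, and Snx24 at 216% and 42.3%. Slco4a1 stood at 137% in WT and 65.3% in KO, so it too moved in opposite directions in the 2 genotypes. Of all genes 58% were called in WT (27.3% higher and 30.7% lower) and 60.4% in KO (28.7% and 31.7%), from the libraries that chose the 7. The difference between these changes was -2.51 ± 0.12 for Rab3il1, -2.45 ± 0.18 for Hip1, -2.36 for Snx24, -2.14 ± 0.13 for Rasgef1b, -1.97 ± 0.14 for Mtss1, -1.95 ± 0.11 for Cdk20 and -1.07 for Slco4a1.

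The selection rule has no stated threshold, so the places of the 7 genes show where it fell. Among 8664 genes with a mean of at least 5 CPM, ordered from the most negative difference between genotypes in the 3 h to 7 h change, Rab3il1, Hip1 and Rasgef1b took places 1, 2 and 3. Mtss1 took place 5, Cdk20 place 6 and Slco4a1 place 73, and Snx24 was under 5 CPM. Among all 13748 genes the places by change were 17 for Rab3il1, 20 for Hip1, 23 for Snx24 and 32 for Rasgef1b. Mtss1 was there at 50, Cdk20 at 51 and Slco4a1 at 408. By the level at 7 h, Rab3il1 was at place 1, Hip1 at 3, Cdk20 at 7, Mtss1 at 12, Rasgef1b at 17 and Slco4a1 at 1882 of the 8664. Among all 13748 the places by level were 10 for Rab3il1, 16 for Snx24, 20 for Hip1 and 43 for Cdk20. Mtss1 was there at 61, Rasgef1b at 81 and Slco4a1 at 3802. Genes that are not among the 7 lie between them. By level, Sesn1, which encodes a stress-induced sestrin, had log2 -2.57, and Cd300lb, encoding a myeloid surface receptor, had -2.17. The genes next to Rasgef1b and Slco4a1 were taken from protein-coding genes only, while the places count all genes. Next to Rasgef1b stood Ptger4 (-1.73), which encodes a prostaglandin E2 receptor, and Slco2b1 (-1.67) on the inside. Zdhhc14 and Nck2 (both -1.65) stood on the outside. By change, Ptger4 (-1.97) took place 4, just before Mtss1, and Nck2 (-1.81) and Irf5 (-1.75) stood just after Cdk20. The protein-coding neighbours of Slco4a1 by change were Bmt2 and Fgd3 (both -1.07) before it and Tnfrsf26 and Fam53b (both -1.06) after it.

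The 7 h libraries of R837 alone can be set beside the libraries with 3 h of R837 and 4 h of ActD, which reach the same total time without new transcription after 3 h. In WT all 7 genes were higher at 7 h without ActD than with it, and no library overlapped, which held for 39% of all genes. In KO 4 of the 7, Rab3il1, Hip1, Mtss1 and Cdk20, were below the ActD level in every library, which held for 37.6% of all genes. Rab3il1 in KO was at 16.2, 14.5 and 14.5 CPM at 7 h and at 33.7, 32.1 and 30.2 CPM with ActD (log2 -1.09 ± 0.09). In WT it was at 105, 93.4 and 92.9 CPM against 34.2, 33.9 and 34.9 CPM (log2 1.50 ± 0.08). Hip1 in KO was at 4.48, 5 and 5.11 CPM against 13.1, 11.7 and 8.71 CPM with ActD (log2 -1.21 ± 0.14), and Mtss1 at 6.31, 5.21 and 5.43 against 10.4, 9.37 and 8.19 CPM (-0.73 ± 0.11). Cdk20 in KO was at 7.25, 7.48 and 7.23 against 10.6, 9.93 and 10.9 CPM (-0.52 ± 0.09), and Snx24 overlapped (-0.33 ± 0.20).

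These values are relative to the average transcript of a library, and blocked transcription can lower that average. Scaling by ribosomal and elongation factor transcripts moved the median gene in this comparison by 0.44 in KO and 0.71 in WT. Under it Rab3il1 (-0.65), Hip1 (-0.78) and Mtss1 (-0.29) in KO were still lower at 7 h than with ActD, Cdk20 was at -0.08, and Snx24 turned to 0.10. The opposite pattern in the 2 genotypes, above 0.5 in WT and below -0.5 in KO, was met by Rab3il1, Hip1, Mtss1 and Cdk20. Of all 13748 genes 52 met it (0.378%). The 7 h libraries that chose the 7 genes are part of this pattern, so it is a description and no test. With ribosomal scaling Mtss1 and Cdk20 were not below -0.5 in KO, and the 52 genes were not recounted under it. Rasgef1b and Slco4a1 differed from those 4 genes: in KO they were above the ActD level in all libraries (log2 1.58 ± 0.11 and 0.96 ± 0.16), though less so than in WT (3.95 ± 0.12 and 3.55 ± 0.22).

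**Figure D2:**
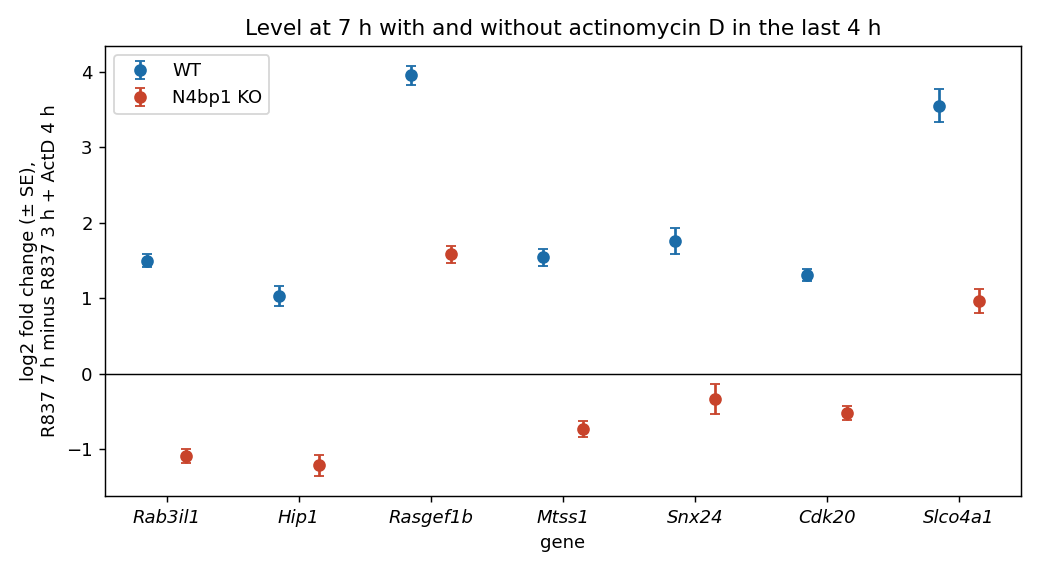
Log2 fold change (points, ± SE) of R837 for 7 h against R837 for 3 h with 4 h of ActD, for each of the 7 genes in WT (blue) and KO (red), each from 3 libraries against 3. All WT points lie above 0, from 1.03 for Hip1 to 3.95 for Rasgef1b, and in KO only the points of Rasgef1b and Slco4a1 lie above 0.

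With ActD on the cells, the genotypes could be compared in libraries that did not choose the genes. No gene of the 7 was lower in KO by more than log2 0.69 at any of the 4 times. Markers of other cells differed between genotypes in these libraries too. Over the mean of the ActD times 11 of 11 tested fibroblast and stromal markers were higher in KO (median 0.98), as were 5 of 8 of B and plasma cells, 6 of 15 of neutrophils (1 lower), 4 of 9 of dendritic cells (3 lower), 2 of 5 of T and NK cells (1 lower) and 1 of 6 of mast cells and basophils, against 23.6% higher and 26.2% lower of all genes. Of 15 macrophage markers 8 were higher and 7 lower. After 4 h of ActD fibroblast and stromal markers summed to 19.2 to 23.1 CPM in WT and 47.4 to 57.6 CPM in KO, and dendritic cell markers to 228 to 243 against 483 to 558 CPM. T and NK cell markers summed to 15.7 to 17.7 against 33.9 to 38.3 CPM, B and plasma cell markers to 27.7 to 34.6 against 55.8 to 60.6 CPM, and macrophage markers to 42623 to 50543 against 40241 to 40856 CPM. As said above, the T and NK cell sum rests mostly on Cd4, Lck and Cd8a, and the dendritic cell sum on Cd74 and H2-Ab1. The part of these marker differences in the calls below was not tested. Over the mean of the 4 ActD times all 7 genes passed the threshold (edgeR quasi-likelihood test, adjusted p below 0.05), against 49.8% of all genes tested, 3 of them higher and 4 lower in KO. Slco4a1 (log2 1.43 ± 0.10, adjusted p = 1.43e-15), Rasgef1b (0.44 ± 0.06, 2.32e-08) and Mtss1 (0.22 ± 0.05, 0.000474) were higher in KO under every scaling tried. Snx24 was lower (-0.48 ± 0.09, 1.4e-05), also under every scaling. Hip1 (-0.25 ± 0.06, 0.00076), Cdk20 (-0.14 ± 0.04, 0.00265) and Rab3il1 (-0.12 ± 0.04, 0.014) were lower by small amounts. Scaling by ribosomal transcripts moved the median gene by 0.11 and left Hip1 at -0.15 (edgeR adjusted p = 0.15), Cdk20 at -0.03 (0.565) and Rab3il1 at -0.01 (0.865), not passing the threshold; without the filter on low counts Cdk20 (0.074) and Rab3il1 (0.0641) did not pass either.

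Slco4a1 passed the test as higher in KO at each of the 4 times. It was already higher in KO at 3 h of R837, before ActD (log2 0.86 ± 0.15), and that level entered its choice. Whether the difference at 3 h carried over was not tested, so these p-values are not fully independent of the choice. After 0.5 h of ActD Slco4a1 was at 6.68, 5.34 and 4.27 CPM in WT and at 12.2, 12.5 and 11.6 CPM in KO (log2 1.17 ± 0.15, edgeR adjusted p = 2.2e-07). After 4 h it was at 0.613, 1.37 and 0.603 CPM in WT and at 5.02, 4.99 and 3.86 CPM in KO (log2 2.37 ± 0.24, edgeR adjusted p = 6.3e-10). The WT values at 4 h are 11, 30 and 11 reads, so the size of this difference rests on few counts. After 1 h and 2 h the differences were 0.86 ± 0.17 and 1.30 ± 0.20 (edgeR adjusted p = 0.000209 and 2.64e-06), and no library overlapped at any of the 4 times. At 4 h KO libraries lay all above WT in 20.5% and all below in 19.6% of all genes.

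The remaining calls at single times were fewer and smaller. After 0.5 h of ActD 3 of the 7 genes passed, against 26.4% of all genes (13.7% higher and 12.7% lower in KO): Slco4a1, Rasgef1b (log2 0.30 ± 0.09, edgeR adjusted p = 0.013) and, lower in KO, Snx24 (-0.69 ± 0.16, 0.00146). Snx24 was then at 5.91, 6.46 and 4.21 CPM in WT and at 3.77, 3.48 and 3.07 CPM in KO, with no overlap. Rasgef1b was at 76.1, 68 and 62.1 CPM in WT and at 90.1, 89.3 and 75 CPM in KO, where the highest WT library lay above the lowest KO library. That call was lost without replicate 1 or 2 of KO or replicate 3 of WT (edgeR adjusted p = 0.0748, 0.0643 and 0.0956).

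After 1 h of ActD 3 of the 7 passed, against 17.4% of all genes (7.51% higher and 9.92% lower): Slco4a1 higher, Hip1 and Rab3il1 lower in KO. Hip1, the clathrin adaptor gene, was at 26.4, 28.6 and 26.7 CPM in WT and at 17.6, 17.6 and 19.5 CPM in KO (log2 -0.58 ± 0.12, edgeR adjusted p = 0.000364). This was the largest gap of Hip1 under ActD, and it was present under every alternative run (-0.72 to -0.54). Rab3il1 was at 75.2, 75.3 and 66.4 CPM in WT and at 67.3, 60.4 and 58.6 CPM in KO, with overlap. Its call (log2 -0.22 ± 0.08, edgeR adjusted p = 0.0438) was lost without replicate 2 or 3 of KO or replicate 1 or 2 of WT (0.13, 0.189, 0.144 and 0.16), and with RLE size factors (0.0605), DESeq2 (0.054) or no filter (0.0865).

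After 2 h of ActD 3 of the 7 passed as higher and 1 as lower in KO, against 14.7% higher and 15.4% lower (30.2% in all) of all genes. Rasgef1b was at 9.83, 7.21 and 8.7 CPM in WT and at 12.9, 11.6 and 12.4 CPM in KO (log2 0.53 ± 0.12, edgeR adjusted p = 0.000874). Mtss1 was at 11.6, 10 and 10.6 CPM in WT and at 13.9, 13.4 and 12.6 CPM in KO (0.32 ± 0.11, 0.0212), and Slco4a1 was higher too. Both Rasgef1b and Mtss1 were above WT in every KO library, which held for 22.3% of all genes. Snx24 was lower in KO (-0.51 ± 0.18, edgeR adjusted p = 0.0248), at 4.57, 4.05 and 3.88 against 3.19, 3.16 and 2.38 CPM. The call of Mtss1 was lost without replicate 1 or 2 of KO or replicate 2 or 3 of WT (0.0794, 0.0562, 0.114 and 0.0595). That of Snx24 was lost without replicate 3 of KO or replicate 1 or 2 of WT (0.135, 0.0872 and 0.0524) and with ribosomal scaling (0.201).

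After 4 h of ActD 3 of the 7 passed as higher and 1 as lower, against 17.7% and 17.9% (35.6% in all) of all genes. Rasgef1b was at 6.69, 5.71 and 4.82 CPM in WT and at 9.58, 8.52 and 9.75 CPM in KO (log2 0.70 ± 0.13, edgeR adjusted p = 7.79e-05). Mtss1 was at 7.69, 7.08 and 5.04 CPM in WT and at 10.4, 9.37 and 8.19 CPM in KO (0.50 ± 0.12, 0.000851). Both genes, far lower in KO at 7 h of R837 alone, were thus higher in KO after 4 h of ActD. They were also higher in KO at 3 h of R837, before ActD (log2 0.48 ± 0.09 and 0.21 ± 0.09). After 1 h of ActD neither passed, at 0.23 ± 0.10 for Rasgef1b and -0.11 ± 0.10 for Mtss1 (edgeR adjusted p = 0.111 and 0.5). Whether the difference at 3 h carried over was not tested. Cdk20 was at 12, 12.2 and 12.4 CPM in WT and at 10.6, 9.93 and 10.9 CPM in KO (-0.22 ± 0.08, edgeR adjusted p = 0.0392). Ribosomal scaling turned this difference to 0.06 (0.629), and the call was lost without any of 5 single libraries (all but replicate 3 of KO; edgeR adjusted p between 0.0673 and 0.146) and in the other fits named in the closing section. Rab3il1 (-0.10 ± 0.08), Hip1 (-0.13 ± 0.13) and Snx24 (-0.34 ± 0.20) did not pass at 4 h.

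**Figure D3:**
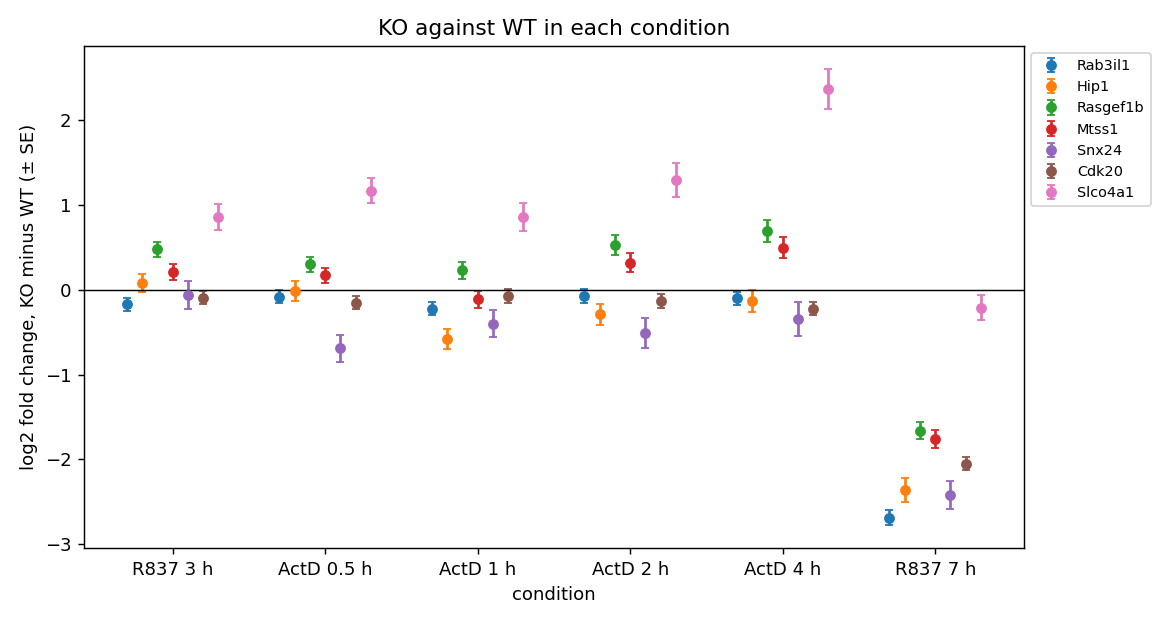
Log2 fold change of KO against WT (points, ± SE, 3 libraries against 3) for the 7 genes in the 6 conditions, where ActD times follow 3 h of R837. At R837 7 h all points lie below 0, from -2.69 for Rab3il1 to -0.21 for Slco4a1, while at the other conditions the points of Slco4a1 and Rasgef1b lie above 0 and none lies below -0.69.

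The fall of the 7 transcripts after transcription was blocked was compared between 0.5 h and 4 h of ActD. All 7 passed as lower at 4 h in both genotypes (edgeR adjusted p at most 4.64e-06 in WT and 0.00262 in KO), against 37.3% of all genes in WT and 35.9% in KO. Of all genes 67.4% changed in WT (30.1% higher) and 65.3% in KO (29.4% higher). Rasgef1b fell most. In WT it went from 76.1, 68 and 62.1 CPM to 6.69, 5.71 and 4.82 CPM (log2 -3.58 ± 0.12), and in KO from 90.1, 89.3 and 75 CPM to 9.58, 8.52 and 9.75 CPM (-3.18 ± 0.11). Slco4a1 fell by 2.58 on the log2 scale in WT and by 1.38 in KO, and Mtss1 by 1.85 and 1.51. Rab3il1 fell by 1.18 in WT and 1.20 in KO, and Hip1 by 1.11 and 1.23. Snx24 (0.99 and 0.63) and Cdk20 (0.57 and 0.63) fell least. Ribosomal scaling moved the median gene in this comparison by -0.62 in WT and -0.47 in KO, so all these falls are larger under it. The genes called lower, of 13748, then rose from 5130 to 9014 in WT and from 4932 to 7659 in KO. The shares of all genes given above are thus larger under it too. Between 0.5 h and 2 h the fall of Snx24 in KO did not pass (-0.23, edgeR adjusted p = 0.307).

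As a share of the mean at 3 h of R837, the level after 4 h of ActD was 5.42% in WT and 6.3% in KO for Rasgef1b and 11.2% and 33.5% for Slco4a1. It was 27.5% and 33.8% for Mtss1, 43.1% and 37.4% for Hip1, 53.6% and 56.3% for Rab3il1, 63.9% and 53.7% for Snx24, and 68.8% and 63.03% for Cdk20. Rab3il1 was above its 3 h level after 0.5 h of ActD in both genotypes (121% and 129%). Set beside these shares, the mean levels at 7 h of R837 alone in KO were 26.5% for Rab3il1, 44.1% for Cdk20 and 20.5% for Mtss1. They were 16.3% for Hip1 and 42.3% for Snx24, also below the shares after 4 h of ActD. Rasgef1b (18.95%) and Slco4a1 (65.3%) were instead above theirs. The shares after ActD depend on the scaling: with ribosomal scaling the difference of Cdk20 between 4 h of ActD and 3 h of R837 went from log2 -0.54 to -1.15 in WT and from -0.66 to -1.19 in KO, and its level in KO at 7 h then differed from that after 4 h of ActD by -0.08.

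The test of the difference between genotypes in this fall found 0 of the 7 genes (edgeR, adjusted p below 0.05), against 0.145% of all genes (0.124% higher and 0.0218% lower in KO). At an unadjusted edgeR p below 0.05 there were 3, Rasgef1b, Mtss1 and Slco4a1. The share of all genes at that looser threshold was not counted, so these 3 cannot be set against the 0.145%. The nearest was Slco4a1, whose fall was smaller in KO by log2 1.20 ± 0.30 (edgeR adjusted p = 0.0995). It passed with DESeq2 (0.015), where it was the 1 gene of the 7 called, and without the filter (0.00241). It also passed without replicate 2 of WT at 4 h of ActD (1.75, 0.0213), the library with 30 reads where the others had 11, and without replicate 3 of WT at 0.5 h (1.35, 0.0161). Between 0.5 h and 2 h the difference of Slco4a1 was 0.14 (edgeR adjusted p = 0.951), and over the 19 alternatives run the adjusted p ranged from 0.00241 to 0.951. Rasgef1b (0.40 ± 0.16), Snx24 (0.36 ± 0.26) and Mtss1 (0.33 ± 0.15) also had smaller falls in KO by their estimates, with edgeR adjusted p of 0.402, 0.681 and 0.443. The estimates were near 0 for Rab3il1 (-0.02 ± 0.11), Cdk20 (-0.07 ± 0.11) and Hip1 (-0.12 ± 0.18). Ribosomal scaling turned these last 3 estimates to 0.14, 0.08 and 0.04, and none passed.

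Ordered by their mean level over the 12 groups, 5 of the genes (Rab3il1, Hip1, Mtss1, Snx24 and Cdk20) had KO at 7 h in the last place. The level of KO at 7 h entered the choice of the genes, so these orders are a description. Neither the share of all genes with KO at 7 h last nor their overlaps of neighbouring groups were counted. For Rab3il1 the order ran from WT at 7 h (97.03 CPM) through 0.5 h and 1 h of ActD to KO at 7 h (15.1 CPM), and 6 of its 11 pairs of neighbouring groups overlapped. For Cdk20 it ran from WT at 7 h (30.3 CPM) to KO at 7 h (7.32 CPM), and 7 of 11 pairs overlapped; the step between WT at 7 h and the next group (18.03 CPM) did not. Snx24 had the same ends, 9.44 and 1.75 CPM, with 10 of 11 pairs overlapping and only WT at 7 h apart from its neighbour. Hip1 and Mtss1 instead began with KO at 3 h, at 29.9 and 27.6 CPM, with 7 of 11 pairs overlapping for each. KO at 7 h was apart from its neighbour for Hip1 (KO at 4 h of ActD) and not for Mtss1 (WT at 4 h of ActD). Rasgef1b and Slco4a1 ran from KO at 3 h (147 and 13.8 CPM) to WT at 4 h of ActD (5.74 and 0.862 CPM). Of their 11 pairs, 5 and 9 overlapped, and KO at 7 h took place 7 and place 4.

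Across the 36 libraries, the log2 CPM of the 7 genes were correlated to different degrees. Over the 21 pairs Pearson's r ranged from 0.20 to 0.92 (median 0.74), as a description over libraries that share treatments. Rab3il1 was closest to Hip1 and Cdk20 (both 0.92), and Snx24 to Cdk20 (0.92). Hip1 and Mtss1 had an r of 0.90. Slco4a1 stood apart from Rab3il1 (0.23), Hip1 (0.25), Snx24 (0.20) and Cdk20 (0.26), and was nearest to Rasgef1b (0.81).

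The search covered 8210 protein-coding genes with a mean of at least 5 CPM, a count that includes those of the 7 at that level. Of the genes outside the 7, the 6 most like the mean of the 7 over the 36 libraries were named. They were Rab7b (r = 0.966), encoding a Rab GTPase of endosomes, Slc15a4 (0.955), encoding an endolysosomal histidine and peptide transporter, and C3ar1 (0.952), encoding the complement C3a receptor. Dhrs3 (0.945), a retinaldehyde reductase gene, Cdk14 (0.933) and Specc1 (0.932) followed. By single member, C3ar1 was the most like Rab3il1 (0.922), Cdk20 (0.911) and Snx24 (0.880). Ptger4 was the most like Rasgef1b (0.989), Irf5, encoding an interferon regulatory factor, the most like Mtss1 (0.970), and Mfsd12, a lysosomal transporter gene, the most like Hip1 (0.950). Stam2 was the most like Slco4a1 (0.933), and it alone of these genes was not lower in KO at 7 h (log2 0.01). The log2 differences of KO from WT at 7 h were -1.59 for Rab7b, -0.86 for Slc15a4, -1.54 for C3ar1, -1.62 for Dhrs3, -1.03 for Cdk14, -1.02 for Specc1, -1.52 for Irf5 and -1.27 for Mfsd12. Likeness to the 7 uses the same libraries, so these are descriptions too. Rab7b was at 92.7 ± 5.34 CPM (SD, n = 3) in WT and 30.8 ± 1.87 CPM in KO at 7 h, and at 35.4 ± 1.09 and 38.5 ± 1.77 CPM after 4 h of ActD.

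**Figure D4:**
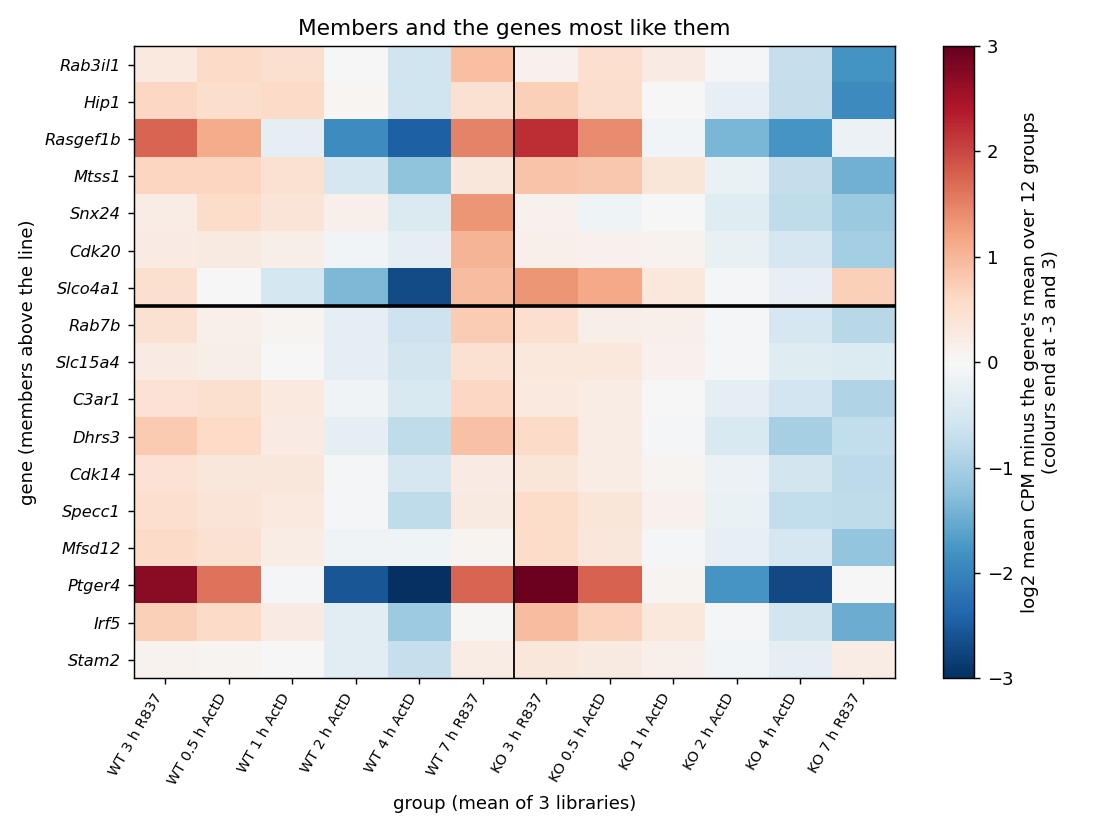
Heat map of the 7 genes (above the line) and of the 10 genes most like them (below), in the 12 groups with WT on the left and KO on the right; colour is the log2 mean CPM of 3 libraries minus the gene's mean over the groups, with colours ending at -3 and 3. The column of KO at 7 h is blue for all genes except Slco4a1, Stam2 and the nearly white Rasgef1b and Ptger4, and that of WT at 7 h is red or near white.

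Other genes of the same families were taken from 7 lists of relatives drawn up by family, with earlier results of these data known. From each list the genes with the 3 smallest p at 7 h and the closest paralogues are named. At 7 h 15.5% of all genes were called higher and 15.1% lower in KO, with a median log2 difference of -0.01. Each list held genes called higher and genes called lower. Of 23 tested genes of the Rab3, Rab8, Rab11 and Rab27 GTPases and their activators and effectors, relatives of Rab3il1, 5 were higher and 7 lower in KO at 7 h (median -0.22). Rab11fip1, encoding a Rab11 effector, was at 186, 201 and 191 CPM in KO and at 46.2, 49 and 50 CPM in WT libraries, with no overlap (log2 2.00 ± 0.10, edgeR adjusted p = 6.44e-20). Rab11fip5, another Rab11 effector gene, was lower in KO, at 33, 33.9 and 34.1 against 90.4, 89.8 and 85.8 CPM (-1.40 ± 0.11, 6.41e-14). Dennd4a, encoding an activator of Rab10, was higher (1.09 ± 0.12, 8.25e-10). Rab3ip, the closest paralogue of Rab3il1, did not pass (0.33 ± 0.14, edgeR adjusted p = 0.0726).

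Of 25 tested genes of the clathrin coat and its adaptors, relatives of Hip1, 5 were higher and 4 lower at 7 h (median -0.07). Bin1, encoding a membrane-bending amphiphysin, was lower (log2 -0.55 ± 0.06, edgeR adjusted p = 1.58e-09), as was the scaffold gene Itsn1 (-0.29 ± 0.07, 0.00114), and the clathrin assembly gene Picalm was higher (0.37 ± 0.06, 8.91e-06). The paralogue Hip1r was higher in KO (1.11 ± 0.29, 0.00261) at a mean of only 0.74 CPM over all libraries. Of 28 tested sorting nexins, relatives of Snx24, 3 were higher and 11 lower (median -0.10). Snx18 was higher (0.84 ± 0.07, 5.04e-13), and Snx30 (-1.51 ± 0.17, 4.44e-09) and Snx8 (-0.51 ± 0.07, 4.19e-08) were lower. Snx22, the paralogue of Snx24, had 1 to 16 reads a library and did not pass (0.17 ± 0.74, 0.892).

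Of 17 tested BAR-domain genes, relatives of Mtss1, 1 was higher and 5 lower at 7 h (median -0.11). Srgap2, encoding an inverse F-BAR protein (log2 -0.50 ± 0.08, edgeR adjusted p = 6.47e-06), and Pstpip1 (-0.36 ± 0.07, 7.74e-05) were lower and Pstpip2 was higher (0.39 ± 0.07, 2.11e-05). Of 19 tested exchange factors of Ras and Rap, relatives of Rasgef1b, 3 were higher and 5 lower (median -0.24). Rasgrp1, a Ras activator gene, was higher in KO (1.86 ± 0.12, 2.58e-16) and so was Ralgds (0.72 ± 0.10, 1.01e-07), while Rapgef5, a Rap activator gene, was lower (-0.87 ± 0.10, 6.81e-09). The paralogue Rasgef1a did not pass (-0.39 ± 0.44, 0.551). Of 23 tested cyclin-dependent and related kinases, relatives of Cdk20, 1 was higher and 5 lower (median 0.04). Cdk14 was lower (-1.03 ± 0.07, 3.44e-15), as was the Mediator kinase gene Cdk19 (-0.48 ± 0.09, 2.78e-05), and Cdk17 was higher (0.67 ± 0.08, 2.35e-08). Of 22 listed organic anion and related transporters, relatives of Slco4a1, 5 were tested. Slco3a1 was higher (0.60 ± 0.11, 1.84e-05), and Slco2b1 (-1.67 ± 0.26, 1.49e-06) and Slc22a4 (-0.50 ± 0.14, 0.00433) were lower. Rasgef1c, Mtss1l and Slco4c1, paralogues of Rasgef1b, Mtss1 and Slco4a1, had at most 9 reads in any library and did not pass the filter.

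The difference between genotypes in the change from 3 h to 7 h was called higher for 5.45% and lower for 6.84% of all genes. Of the Ras and Rap exchange factors 6 of 19 were lower by this measure and the other 13 were not called (median -0.53). Of the Rab list 4 of 23 were lower and 2 higher, of the kinases 4 of 23 lower and 2 higher, and of the BAR-domain genes 3 of 17 lower. Of the clathrin list 3 of 25 were lower, and of the sorting nexins 2 of 28 were lower and 1 higher. Rab11fip5 (-1.46 ± 0.15, edgeR adjusted p = 9.94e-10), Snx30 (-1.41 ± 0.24, 3.9e-05), Cdk14 (-0.98 ± 0.10, 6.78e-10) and Rapgef5 (-0.74 ± 0.15, 0.0004) were among the lower ones. These genes were named for their small p at 7 h, and the 7 h libraries are part of this measure. Scaling by ribosomal transcripts moved the median gene by -0.20 in this measure and the split of all calls from 749 higher and 941 lower to 259 higher and 1537 lower, and the list counts were not recomputed under it. Over the mean of the ActD times 8 of 23 genes of the Rab list were higher and 4 lower in KO, and 5 of 28 sorting nexins were higher and 11 lower. Of the Ras and Rap exchange factors 8 of 19 were higher and 5 lower, and of the clathrin list 8 of 25 and 6. Of the BAR-domain genes 6 of 17 were higher and 3 lower, and of the kinases 6 of 23 and 7. Of the organic anion and related transporters 2 of 5 were higher and 1 lower. These counts stand against 23.6% higher and 26.2% lower of all genes.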

How the data were processed

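RNA-seq libraries (TruSeq, single-end 50-base reads, per the labels' protocols) were made from BMDMs, 36 in all. The submitters' processing notes name GSNAP as aligner and GRCm38 as build. Neither the counter, the annotation release nor the strand setting is given there or in the labels. The authors deposited a whole-number count and an RPKM value per gene and library; the counts were used for every test, and the deposited RPKM values only for levels per length. The count totals were 90.86 to 91.76% of the read totals that the RPKM values imply, and 52403 of 52636 identifiers matched GENCODE M21 (the other 233 held at most 0.0202% of counts). No 2 libraries of a group differed by less than sampling noise.

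Counts were scaled by TMM, and 13748 genes kept by filterByExpr were fitted in 1 model of 12 groups with edgeR 4.0.16 (quasi-likelihood test, R 4.3.3, Benjamini-Hochberg adjusted p below 0.05 over all genes; biological coefficient of variation 7.48%); the script was tested on simulated data. CPM are TMM-scaled, except the marker sums, which use library totals. The 7 genes, their relatives and the marker lists were chosen with earlier results of these data known. Other genes were named by fixed rules: nearest ranks, highest correlation, the 3 smallest p of a list at 7 h, and paralogues. Alternatives were RLE and ribosomal scaling, no filter or 1 CPM in 3 libraries, only the libraries compared, DESeq2 1.42.0, 2 h minus 0.5 h of ActD, and leaving out each library.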

Additional observations from a re-analysis of the deposited data

Results flagged for a closer look

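Among the relatives of the 7 genes named in the text, the change from 3 h to 7 h of R837 differed between genotypes by at least 1 on the log2 scale, with an edgeR adjusted p below 0.05, for 3 genes. The relatives were named for the 3 smallest p of each list at 7 h, or as closest paralogues. The 7 h libraries are part of this measure, so the p-values below are no independent test. Rab11fip1, encoding a Rab11 effector, had a difference of 1.01 ± 0.13 (edgeR adjusted p = 2.9e-07). Its mean went from 72.3 to 48.4 CPM in WT and from 143 to 193 CPM in KO between 3 h and 7 h. Rab11fip5, a gene of the same effector family, had -1.46 ± 0.15 (edgeR adjusted p = 9.94e-10). It went from 47.4 to 88.7 CPM in WT and from 49.3 to 33.7 CPM in KO. Snx30, a sorting nexin gene, had -1.41 ± 0.24 (edgeR adjusted p = 3.9e-05), going from 6.04 to 9.68 CPM in WT and from 5.63 to 3.4 CPM in KO. The measure was called in 12.3% of all genes at any size of difference, and the share with a size of at least 1 was not counted. The markers of fibroblasts that were higher in KO (10 of 11 at 7 h) were not tested for a part in these 3 differences.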

How the results depend on the processing

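No paired analysis was possible because the labels carry no replicate numbers, and replicates were numbered only in the order of the records. Among values of the 7 genes, 2055 alternatives kept the side of the threshold or, for descriptive values, moved by less than their spread. Another 67 descriptive values moved by more than their spread, 32 calls were lost and 6 were gained. A change of sign was counted only for a called difference or a descriptive value above 2 SE in size, and 2 were found. Smaller estimates that changed sign are among the other counts. Ribosomal scaling turned Cdk20 at 4 h of ActD to 0.06 and Rab3il1 at 3 h of R837 to 0.03, and lowered the genes of the 7 called over the mean ActD difference from 7 to 4. Cdk20 at 4 h of ActD was also lost with no filter (adjusted p = 0.359), only the libraries compared (0.202) and DESeq2 (0.0507). Without replicate 2 of WT at 2 h of ActD 2 of the 7 were called at 2 h (range 2 to 3 over single libraries left out). For the genotype difference of 4 h minus 0.5 h of ActD, called in 20 genes, the count was 1 for 2 h minus 0.5 h, 109 without a filter, 1 with only the libraries compared, 53 with DESeq2 and 8 to 226 with single libraries left out, the highest without replicate 3 of WT at 0.5 h; of the 7 genes, 1 was called without a filter, 1 with DESeq2 and 0 to 1 with libraries left out. KO against WT after 0.5 h of ActD gave 2026 genes with only the libraries compared and 3626 in the model of all libraries. At 3 h of R837 3818 genes were called, and 2211 to 4280 with single libraries left out (2211 without replicate 1 of KO, 2384 without replicate 3 of WT). The cause of these shifts was not tested. Ribosomal scaling moved the split of higher and lower calls of KO against WT from 1883 and 1743 to 2226 and 611 at 0.5 h of ActD, from 1032 and 1364 to 440 and 2125 at 1 h, from 2023 and 2123 to 2658 and 783 at 2 h, from 2439 and 2457 to 4970 and 609 at 4 h, and from 3250 and 3598 to 4586 and 1876 over the mean. For 4 h minus 0.5 h of ActD it moved 4139 and 5130 to 720 and 9014 in WT and 4039 and 4932 to 744 and 7659 in KO. At 3 h of R837 it moved 2087 and 1731 to 3820 and 424. Depth limits Slco4a1 in WT after 4 h of ActD (11 to 30 reads) and Snx24 in KO at 7 h (40 to 54 reads).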
